A study of Mus musculus with 8 samples.

Results

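The AP-1 transcription factors described here are the 6 genes Fos, Fosb, Fosl2, Jun, Junb and Jund, taken by gene symbol from the 46078 gene entries of a hippocampal RNA-seq count table. Each symbol occurred once in the table, and all 6 passed the filter on low counts that left 15859 genes for testing. The genes were picked with earlier results of these libraries known, namely the difference between transgenic and wild-type mice. That difference is therefore given below as a description, with its standard error and without a p-value of any AP-1 gene, and it supports nothing by itself. Counts of AP-1 genes under a threshold are given only beside the share over all genes.

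The libraries came from 2 genotypes of C57BL/6J mice, all 9 weeks old. One group of 4 libraries (Cre) came from mice with 1 copy (Cre+/-) of the transgene Tg(Camk2a-cre)2Gsc, called CamiCre, in which regulatory DNA of Camk2a directs the Cre recombinase to excitatory neurons of the forebrain. The other 4 libraries (WT) came from wild-type mice without the transgene. The labels name no floxed target gene and no treatment, and they do not say whether a library stands for a single animal, so p-values measure only the spread between these libraries, which may be technical. Library totals were 21339996 to 27826871 counts in Cre and 24289522 to 26950207 counts in WT, and each AP-1 gene had at least 248 counts in every library. Markers of dentate granule neurons summed to 440 to 590 CPM (counts in each 1000000 of the normalised library total) in Cre and 468 to 550 CPM in WT, and those of CA1 neurons to 851 to 1056 CPM and 932 to 1052 CPM in the same order, with 0 markers of either list at 0 in all libraries. Syt2, for which the series is named, had 164 to 188 CPM in Cre and 32.8 to 41.5 CPM in WT (4.97-fold, edgeR adjusted p = 2.48e-09).

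AP-1 is a dimer of basic leucine zipper proteins. Jun proteins pair with each other or with Fos proteins, whereas Fos proteins need a Jun partner, and the dimers bind the DNA site TGACTCA or the related cyclic AMP response element (CRE). In hippocampal neurons Fos, Fosb and Junb are immediate early genes, switched on within minutes of strong synaptic activity through kinases that act on factors already bound to their promoters, while Jund is present in resting neurons.

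The sequences just before the starts of Fos, Fosb, Jun and Junb are shown because factors of that fast induction bind such stretches. Each line gives the 140 bases before the gene start of GENCODE M21, on the gene's own strand, from RefSeq promoter sequence of build GRCm38.p6. Capitals mark the core of the CRE (TGACG), the TATA box (TATAAA) and the CCAAT box. In Jun they also mark the CRE-like site known from this promoter (TGACATCA) and, after it, the MEF2 site of 10 letters.
Fos: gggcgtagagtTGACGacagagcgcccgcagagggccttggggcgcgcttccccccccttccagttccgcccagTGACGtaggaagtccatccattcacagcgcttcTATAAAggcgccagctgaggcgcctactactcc
Fosb: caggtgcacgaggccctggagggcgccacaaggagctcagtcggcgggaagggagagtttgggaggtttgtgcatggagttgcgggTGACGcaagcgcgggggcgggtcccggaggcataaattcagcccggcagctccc
Junb: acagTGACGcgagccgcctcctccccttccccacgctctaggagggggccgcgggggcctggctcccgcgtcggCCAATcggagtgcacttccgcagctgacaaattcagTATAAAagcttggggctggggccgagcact
Jun: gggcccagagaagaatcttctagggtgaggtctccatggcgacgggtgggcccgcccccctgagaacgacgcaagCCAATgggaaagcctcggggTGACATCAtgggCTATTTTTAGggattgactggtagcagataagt

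These stretches lie at chr12:85473750-85473889 (plus strand) for Fos, chr7:19310052-19310191 (minus) for Fosb, chr8:84978719-84978858 (minus) for Junb and chr4:95052223-95052362 (minus) for Jun. All 6 genes had a RefSeq promoter window of 300 bases, and the motifs were searched on both strands of each. Fos held TGACG at positions -129 to -125 and -66 to -62 and TATAAA at -33 to -28, counted from the gene start. Junb held TGACG at -136 to -132, CCAAT at -66 to -62 and TATAAA at -30 to -25. Fosb held TGACG at -54 to -50. Jun held no TGACG, but CCAAT at -65 to -61, TGACATCA at -45 to -38 and the MEF2 site at -33 to -24.

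Among all 32851 RefSeq promoter windows of the same length, TGACG occurred in 20.8%, TATAAA in 13.6%, CCAAT in 37.4%, TGACATCA in 3.62% and the MEF2 site in 0.557%. The full CRE TGACGTCA (1.79% of windows), which contains TGACG on both strands, the AP-1 site TGACTCA (5.20%) and the CArG box bound by serum response factor (1.63%) were in 0 of the 6 windows. The windows of 300 bases run across the RefSeq start and so reach fewer than 300 bases upstream of it. A site farther upstream, such as a CArG box, would be missed. The windows of Fosl2 and Jund held 0 of the 8 motifs searched. Their RefSeq starts lie 671 bases downstream and 1210 bases upstream of the GENCODE starts, so the windows may not cover the promoter in use. A match is a run of letters and not a measured binding site.

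**Figure D1:**
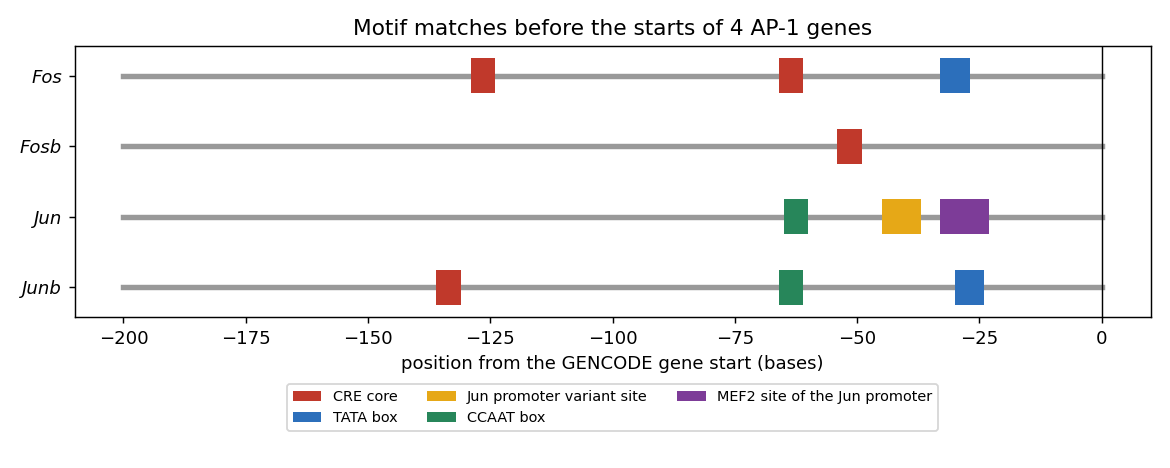
Motif matches along the 200 bases before the GENCODE start of Fos, Fosb, Jun and Junb (horizontal axis, bases from the start; coloured boxes, matches on the gene's strand). Fos and Junb share a TATA box 25 to 33 bases before the start and a CRE core farther upstream, whereas Jun carries the MEF2 site in the place of the TATA box.

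To compare levels between genes, CPM values were divided by the length of all annotated exons in kilobases, which gives RPKM. This length is taken from GENCODE M21, which may not be the annotation the authors counted on, and long alternative ends of Fosb (6243 exonic bases) and Fosl2 (9680) lower their values. By this measure Jund, a Jun protein that is abundant in resting cells, was the highest of the 6 in both groups, with 127 ± 4.77 RPKM in Cre and 121 ± 2.32 in WT (SD, n = 4 each). Junb followed in Cre with 48.6 ± 7.48 RPKM and Jun with 44.3 ± 1.62. In WT, Jun had 42.7 ± 2.999 RPKM and Junb 40.4 ± 5.94. In tissue RNA, fewer cells of a type and less RNA per cell cannot be told apart. Jun and Junb overlapped in both groups, so their order is not set beyond the spread between libraries.

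The Fos family lay lower. Fos had 11.3 ± 2.51 RPKM in Cre and 7.61 ± 1.37 in WT, Fosl2 8.47 ± 1.12 and 8.28 ± 1.41, and Fosb 2.50 ± 0.38 and 2.06 ± 0.57, in the same order of groups. Fos and Fosl2 overlapped in both groups, and Fosb was below both in every library. Fosl1, the remaining member of the family and the gene of the protein Fra-1, had 0 to 2 counts a library, at or under the floor of 3 counts, and was not tested. Summed over each family, the 3 Fos genes made up 9.17% ± 1.13 of the RPKM of all 6 genes in Cre and 8.04% ± 0.94 in WT. The Cre libraries ranged from 8.09% to 10.4% and the WT libraries from 6.86% to 8.99%, with an overlap between the groups.

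Fos, the inducible factor most used as a marker of recently active neurons, had 23.4, 20.7, 34.2 and 27.8 CPM in Cre replicates 1 to 4, against 15.5, 16.1, 22.6 and 17.5 CPM in WT replicates 1 to 4. WT replicate 3 lay above Cre replicate 2, and the other 3 WT libraries lay below every Cre library. The means were 26.5 ± 5.91 CPM in Cre and 17.9 ± 3.22 CPM in WT, a log2 fold change of 0.58 (SE 0.15, 95% interval 0.26 to 0.90). Leaving out Cre replicate 3 gave the smallest estimate, 0.43, and leaving out WT replicate 3 the largest, 0.71.

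Junb, a Jun protein that joins Fos in inducible dimers and restrains Jun, had 99.2, 94.995, 128 and 125 CPM in Cre, against 86.1, 81.8, 113 and 91.3 CPM in WT. As for Fos, WT replicate 3 stood inside the Cre range and the other 3 WT libraries below it. The log2 fold change was 0.27 (SE 0.11, 95% interval 0.03 to 0.51), and it ran from 0.20 without Cre replicate 3 to 0.38 without WT replicate 3. Junb overlaps Prdx2, a peroxiredoxin gene on the opposite strand. Prdx2 had 136 to 146 CPM in Cre and 140 to 149 CPM in WT, with a log2 fold change of -0.04 (SE 0.04). Without the strand setting of the counting, reads of the pair cannot be told apart with certainty.

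Fosb, whose shortened product delta-FosB accumulates under repeated stimulation, had 14.8, 12.8, 16.6 and 18.3 CPM in Cre, against 9.18, 10.9, 14.1 and 17.2 CPM in WT. WT replicates 3 and 4 stood inside the Cre range and WT replicates 1 and 2 below it. The log2 fold change was 0.29 (SE 0.17, 95% interval -0.07 to 0.65), with 0.16 without WT replicate 1 and 0.46 without WT replicate 4. Counts per gene do not separate the full-length transcript from that of delta-FosB.

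Fosl2, the gene of the slowly induced protein Fra-2, had 69.9, 76.9, 86.5 and 94.6 CPM in Cre, against 62.4, 78.2, 85.0 and 94.9 CPM in WT. The ranges nearly coincided apart from WT replicate 1, the lowest of all 8 libraries. The log2 fold change was 0.03 (SE 0.11, 95% interval -0.21 to 0.28), and it turned to -0.07 without WT replicate 1 and to -0.04 without Cre replicate 4.

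Jun, the founding Jun protein and target of the JNK kinases, had 147, 140, 134 and 143 CPM in Cre, against 128, 131, 150 and 135 CPM in WT. The highest library was WT replicate 3, and the groups overlapped. The log2 fold change was 0.05 (SE 0.05, 95% interval -0.06 to 0.16). Jund had 222, 203, 213 and 208 CPM in Cre, against 199, 202, 208 and 201 CPM in WT. WT replicate 3 again stood inside the Cre range, with the other 3 WT libraries below it, and the log2 fold change was 0.06 (SE 0.04, 95% interval -0.02 to 0.14). The antisense genes that overlap both had low counts: Junos, opposite Jun, 1.25 to 2.22 CPM in Cre and 1.15 to 1.71 in WT, and Gm11175, opposite Jund, 4.11 to 4.87 CPM in Cre and 4.41 to 5.03 in WT.

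**Figure D2:**
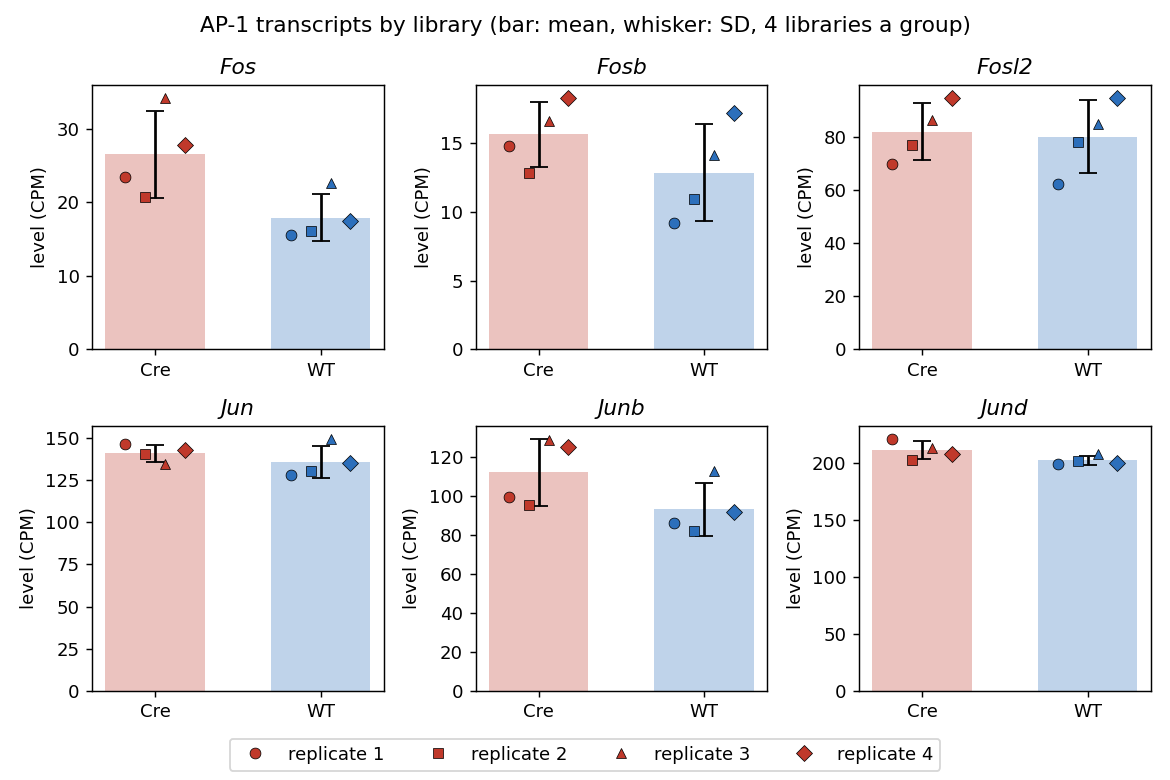
Levels of the 6 AP-1 transcripts in CPM (vertical axes from 0), Cre left and WT right, with 1 point for each library, bars for means and whiskers for SD of 4 libraries. The groups overlap in each gene, and WT replicate 3 (triangle) is inside or above the Cre range in each of the 6 genes.

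All 6 log2 fold changes were above 0 (median 0.17), while 50.2% of the 15859 genes tested lay above 0 (median 0.0004). After Benjamini-Hochberg adjustment in edgeR's quasi-likelihood test 0 of the 6 passed 0.05, where 0.0315% of all genes did, and DESeq2 and limma voom also passed 0. With replicate number as a covariate in edgeR's test, 6 of all 15859 genes passed, and of the AP-1 genes only Fos was among them. The labels state no such pairing of libraries. An unadjusted p under 0.05 with a higher level in Cre was found for 2 of the 6, against 2.05% of all genes, a count favoured by the choice of the genes. The groups were separate for 0 of the 6, against 2.31% of all genes. Since the genes were picked on this contrast, nothing is read from these counts. For comparison, the authors' deposited table, which rests on these libraries too, gave log2 fold changes of 0.57 for Fos, 0.28 for Fosb, 0.03 for Fosl2, 0.05 for Jun, 0.27 for Junb and 0.06 for Jund.

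**Figure D3:**
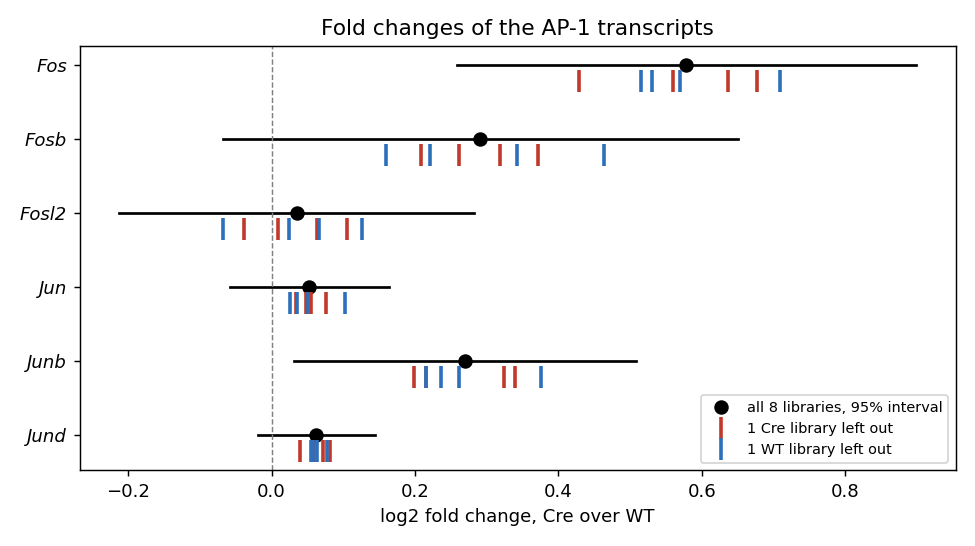
Log2 fold changes of Cre over WT (horizontal axis) for each AP-1 gene, with 95% intervals (black) and the estimates with 1 Cre (red) or 1 WT (blue) library left out. Fos lies highest at 0.58, and only the estimates of Fosl2 cross 0 when a library is left out.

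The genes differed in how much they varied among libraries of 1 genotype. On the log2 CPM scale the within-group SD was 0.32 for Fosb, 0.28 for Fos, 0.23 for Fosl2 and 0.21 for Junb. These values were above those of 86.5%, 83.1%, 77.0% and 75.3% of all tested genes, in the order given, whose median was 0.107. Jun (0.08) was above 34.4% of genes and Jund (0.04) above 7.38%. The inducible members thus spread 2 or more times as widely between libraries as Jun, and Jund had the smallest SD of the 6. These shares are over genes of all levels, and counting error adds to the SD at low levels. Jun and Jund had the highest mean CPM of the 6 in both groups, and the part of level in the SD was not tested.

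Within the genotypes, Fos and Junb had the highest correlation of the 15 pairs of AP-1 genes, but it did not pass adjustment over the pairs. With each group's mean subtracted from log2 CPM, which takes out the difference the genes were picked on, Pearson's r over the 8 libraries was 0.948 (exact permutation of libraries within genotypes, 2-sided, p = 0.00347, adjusted p = 0.0521). Spearman's rho of the ranks within genotypes was 0.9 (exact permutation p = 0.0243, adjusted p = 0.182). Without Cre replicate 3 and WT replicate 3, the 2 libraries farthest from the median of Fos after subtraction, r was 0.914. Without subtraction r was 0.946 and rho 0.952, values that hold the difference between Cre and WT and are given without a p for that reason. Each group alone, with 4 libraries, is too small for a correlation of its own.

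Fosb with Fosl2 had r = 0.896 within genotypes (exact permutation p = 0.0122, adjusted p = 0.0911) and rho = 0.9 (exact permutation p = 0.0243, adjusted p = 0.182), and also did not pass. Without WT replicates 1 and 4, r was 0.747. The r of the other 13 pairs ran from -0.09 (Fosl2 with Jund) to 0.623 (Fosb with Junb), with adjusted p of 0.369 or more, and their rho from 0 to 0.800 (Fos with Fosb), with adjusted p of 0.312 or more. In each pair both values come from the same library and share its depth and scaling.

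**Figure D4:**
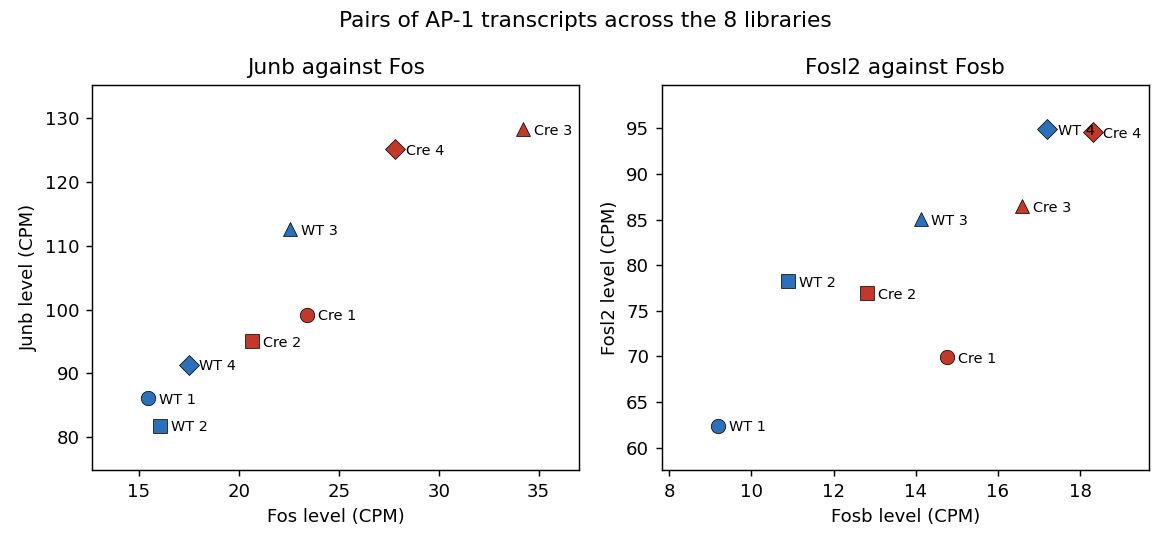
Junb against Fos and Fosl2 against Fosb, in CPM, with 1 point for each library (red Cre, blue WT, labelled by replicate). On the left Cre replicates 3 and 4 and WT replicate 3 have the 3 highest Junb levels, and on the right WT replicate 1 is lowest in both genes.

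Averaged over the 6 genes after standardizing each, Cre replicate 4 stood highest (0.87 SD above the mean) and WT replicate 1 lowest (-1.35). WT replicate 3 was at 0.47, between Cre replicate 1 at 0.42 and Cre replicate 3 at 0.78, and Cre replicate 2 was at -0.24, below WT replicate 4 at -0.09. WT replicate 1 was also the library highest in choroid plexus markers, and its part in the averages was not tested. The 8 markers of that tissue summed to 1588 CPM there, against 123 to 159 CPM in Cre and 122 to 147 CPM in the other WT libraries. Without it the fold changes were 0.52 for Fos, 0.24 for Junb, 0.16 for Fosb, -0.07 for Fosl2, 0.026 for Jun and 0.055 for Jund, all on the log2 scale.

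Most glial markers had fold changes above 0 as well. The 10 astrocyte markers summed to 5555 to 6159 CPM in Cre and 5159 to 5543 CPM in WT, with no overlap, and 9 of the 10 had fold changes above 0. The 12 microglia markers summed to 443 to 586 CPM in Cre, highest in replicate 1, and to 408 to 440 CPM in WT. These sums did not overlap either, and all 12 markers lay above 0. All 10 oligodendrocyte markers also lay above 0, with sums of 4093 to 5253 CPM in Cre and 4076 to 4529 CPM in WT, and the groups overlapped. No marker of these lists was at 0 throughout. Their part in the AP-1 values was not tested. Cre replicate 1, highest for all 3 glial lists, ranked 1 of 8 for Jund, 2 for Jun, 3 for Fos, 4 for Junb, 4 for Fosb and 7 for Fosl2.

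By the measure of likeness used, the genes whose levels over the 8 libraries were closest to that average were Fnta, a subunit of protein farnesyltransferase (r = 0.963), Smim11 (0.943), Daam2, a formin-related gene (0.940), Farp1, a guanine nucleotide exchange factor gene (0.937), and the noncoding gene Gm12940 (0.929). They are the top of 14185 genes searched, of which 11 had r above 0.9, and with 8 libraries such values are a description only. Fos itself had 0.898, with its own values in the average. Group means were not subtracted here, so these r hold the difference between Cre and WT that the AP-1 genes were picked on. Fnta had 38.2 to 40.4 CPM in Cre and 36.4 to 39.8 CPM in WT, and Daam2 101 to 113 CPM in Cre and 88.6 to 105 CPM in WT.

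Other genes of the pathway came from 6 lists. In all of them edgeR's quasi-likelihood test, DESeq2 and limma voom passed 0 genes after adjustment over the whole table, so the values below describe and are not calls. Over all 15859 genes tested, 555 had an unadjusted p under 0.05 by edgeR, and the groups did not overlap for 2.31%. Of 17 other basic leucine zipper genes whose products can pair with or compete with Fos and Jun, 14 were tested. Fold changes were above 0 for 11 of them, with a median of 0.06, and 1 had an unadjusted p under 0.05 by edgeR. That gene was Nfe2l2, which encodes the antioxidant response factor NRF2, with 14.0 ± 1.17 CPM in Cre and 11.8 ± 1.40 CPM in WT (log2 fold change 0.25, SE 0.09). Its unadjusted call was lost without Cre replicate 1, WT replicate 1 or WT replicate 3. Batf3, a factor of dendritic cells, had 2.38 CPM in Cre replicate 1 and 0.61 to 0.73 CPM in Cre replicates 2 to 4, where WT had 0.41 to 0.85 CPM. Its log2 fold change was 0.85 (SE 0.45), and 0.14 without Cre replicate 1.

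Factors that act on the Fos promoter, such as SRF, its partners and CREB with its coactivators, were all measured. Of the 17, 9 lay above 0 and 8 below, with a median of 0.004, and 0 had an unadjusted p under 0.05 by edgeR. Elk3, a ternary complex factor gene, had 7.52 ± 0.57 CPM in Cre and 6.68 ± 0.17 CPM in WT (log2 fold change 0.17, SE 0.09). Mef2a, a factor that binds MEF2 sites, had -0.07 (SE 0.04), and Atf1, a relative of CREB, 0.12 (SE 0.07).

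Genes of the kinase cascades that signal to AP-1 mostly had small fold changes below 0, and the list was not tested as a set. Of 20 JNK, ERK and p38 cascade genes, 18 had fold changes below 0 and 2 above, between -0.12 and 0.04 with a median of -0.03. The 1 with an unadjusted p under 0.05 by edgeR was Map2k4, which encodes the JNK activator MKK4. It had 190, 210.0, 198 and 189 CPM in Cre replicates 1 to 4, against 209, 205, 225 and 219 CPM in WT, and Cre replicate 2 stood inside the WT range. Its log2 fold change was -0.12 (SE 0.05; edgeR adjusted p = 0.999), and the unadjusted call was lost without Cre replicate 4 or WT replicate 3. Map2k5, a kinase gene of the ERK5 cascade, had -0.07 (SE 0.05), and Mapk8ip3, a JNK scaffold gene, -0.04 (SE 0.03).

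Phosphatases of the MAP kinases and genes for turnover of AP-1 messages and proteins were above 0 in 11 of 16 cases, with a median of 0.03 and 0 at an unadjusted p under 0.05 by edgeR. Among these Dusp1, an activity-induced MAP kinase phosphatase, had 23.4 ± 5.82 CPM in Cre and 20.1 ± 5.17 CPM in WT (log2 fold change 0.23, SE 0.18). The Dusp1 value ran from 0.04 without Cre replicate 3 to 0.35 without WT replicate 3. Dusp5 had 0.14 (SE 0.09), with 0.05 without WT replicate 1 and 0.21 without WT replicate 3. Dusp14 had 0.11 (SE 0.08), with 0.02 without Cre replicate 4 and 0.14 without Cre replicate 1. Of 11 genes reported as targets of FosB or Fos in brain, 4 lay above 0 and 7 below, with a median of -0.01.

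Penk, the proenkephalin gene and a classical AP-1 target, was the 1 target with an unadjusted p under 0.05 by edgeR. It had 25.1, 21.1, 21.4 and 21.4 CPM in Cre, against 20.8, 18.4, 20.3 and 19.2 CPM in WT, without overlap (log2 fold change 0.18, SE 0.07; edgeR adjusted p = 0.999). The unadjusted call was lost without Cre replicate 1, WT replicate 2 or WT replicate 4, each of which left 0 such targets. Nptx2, an activity-induced pentraxin, had 0.22 (SE 0.12), with 0.07 without Cre replicate 1 and 0.34 without Cre replicate 3. Cdk5, a kinase gene reported to rise with delta-FosB, had -0.06 (SE 0.04).

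For the 25 immediate early genes outside AP-1, fold changes were above 0 for 20, with a median of 0.25. Of the 25, 9 had an unadjusted p under 0.05 by edgeR, all higher in Cre, against 2.05% of all tested genes. The count ran from 7 to 15 over the alternative settings. The list was chosen with earlier results of these data known, and its genes come from the same libraries as the AP-1 genes. They are therefore not independent of each other or of AP-1, and the list was not tested as a set. Gadd45b, which promotes activity-dependent DNA demethylation, had 15.3, 15.8, 17.8 and 18.7 CPM in Cre, against 12.7, 14.7, 14.5 and 14.0 CPM in WT, and the groups did not overlap. Its log2 fold change was 0.28 (SE 0.08; edgeR adjusted p = 0.999). Tiparp, an ADP-ribosyltransferase gene, had 20.2 to 23.4 CPM in Cre and 17.6 to 19.5 CPM in WT (log2 fold change 0.21, SE 0.06), and Cyr61, a matricellular protein gene, 5.01 to 7.53 and 3.33 to 5.48 CPM in the same order (0.57, SE 0.17). Summed over the list, Cre libraries had 1513 to 1999 CPM and WT libraries 1404 to 1690 CPM, with an overlap.

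**Figure D5:**
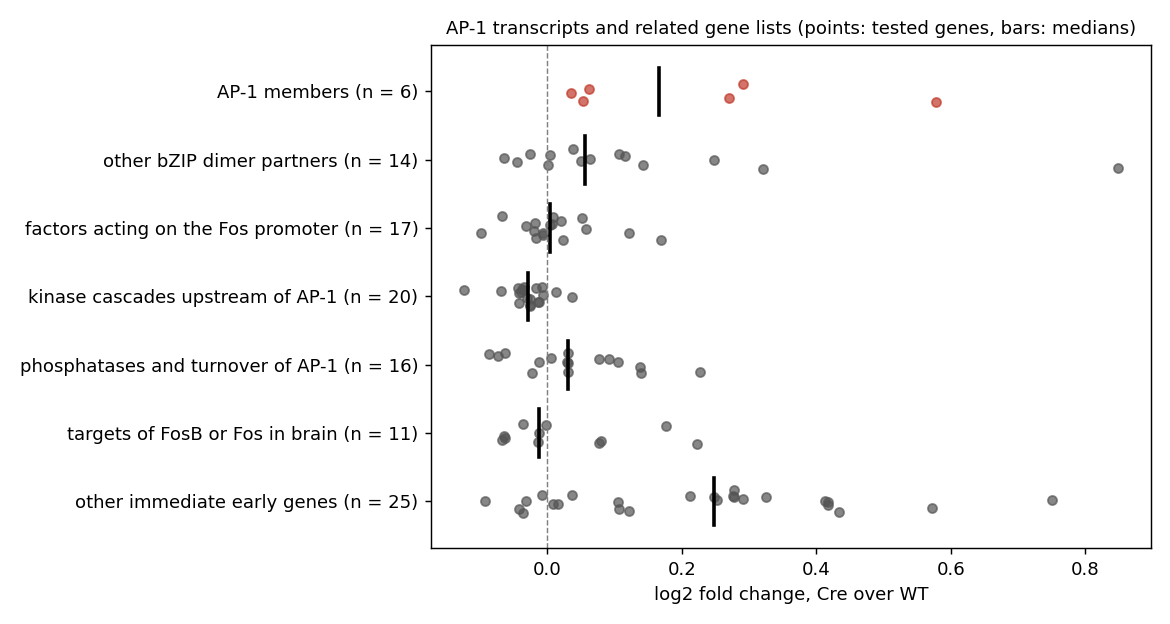
Log2 fold changes of Cre over WT (horizontal axis) for the 6 AP-1 genes (red) and the tested genes of 6 related lists (grey), with black bars at the medians. The medians are 0.17 for the AP-1 genes and 0.25 for the other immediate early genes, against -0.03 to 0.06 for the other 5 lists.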

How the data were processed

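The values analysed are the raw counts per gene that the authors deposited. The submitters' processing notes name STAR 2.6.1d, featureCounts, edgeR 3.11 and build GRCm38; which annotation release and strand setting served is not given in the sources used. The authors also deposited a table with log2 fold changes (Cre over WT by the sign of Syt2), a signed fold and an abundance written as scores, and p-values, per the file headers; of these only the log2 values are printed. Here, filterByExpr (minimum count 10, minimum total 15), TMM scaling (factors 0.988 to 1.01) and edgeR 4.0.16's quasi-likelihood test (R 4.3.3, 2-sided, no covariate, Benjamini-Hochberg over 15859 genes) were used, with limma 3.58.1 and DESeq2 1.42.0 as alternatives. Log2 CPM used a prior count of 2. Standard errors came from the same fit, and the median over genes was 0.07. On simulated counts at these depths, 84.0% of 1.5-fold and 94.0% of 2-fold changes were recovered, with 14 false calls. In that simulation 200 of 15690 genes were changed, whereas 5 genes were called in the data. Adjustment is stricter when fewer genes change, so these shares may be too high for the data. The labels state no pairing of libraries with the same replicate number, whose deviations over all tested genes had correlations of -0.11 to 0.20. Correlations of AP-1 genes were tested on values with the group means subtracted, over all 576 permutations within genotypes. All libraries shared 1 sequencing lane per the labels' protocols. Motif shares are over RefSeq promoter windows of 300 bases. The genes, lists and tests were chosen with earlier results of these data known, and the correlations, motifs and overlapping genes after the values were seen. Named genes are the 6 members, the 3 of each list with the smallest unadjusted p, the 5 closest in pattern, and Syt2. One gene that this rule names is not reported here.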

Additional observations from a re-analysis of the deposited data

Results flagged for a closer look

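Of 60 groups of 4 libraries checked (the AP-1 genes and the other named genes), 3 held a library far from the rest, and chance alone flags about 5% of groups. Batf3 stood at 2.38 CPM in Cre replicate 1, where the remaining Cre libraries had 0.61 to 0.73 CPM. Penk stood at 25.1 CPM in the same library, against 21.1 to 21.4 CPM in the others of its group. Dusp14 stood at 21.5 CPM in Cre replicate 4, where the remaining Cre libraries had 16.9 to 17.6 CPM. No group of an AP-1 gene was flagged.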

How the results depend on the processing

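Over 15 alternatives (other scalings, no filter on low counts, DESeq2, limma voom, edgeR's exact test, a replicate block, and each library left out), the number of genes called among all tested was 4 to 7, against 5, and 0 genes of the 6 lists were called in any of them. With a library left out the log2 fold changes of the AP-1 genes ran from 0.43 to 0.71 for Fos, 0.16 to 0.46 for Fosb, -0.07 to 0.13 for Fosl2, 0.03 to 0.10 for Jun, 0.20 to 0.38 for Junb and 0.04 to 0.08 for Jund, and 2 of the 15 values of Fosl2 fell below 0. With the replicate block 6 genes were called, the added one being Fos (log2 fold change 0.56). Of the other immediate early genes, 15 rather than 9 had an unadjusted p under 0.05 with the block. That count was 14 with no filter on low counts, and it fell to 7 without Cre replicate 3 or without Cre replicate 4. Over all genes tested, 593 had an unadjusted p under 0.05 with the block and 555 without it, and 914 of 26369 with no filter. Correlations of same-numbered libraries over all tested genes were 0.20, -0.11, 0.02 and 0.02, and 1 of 4 Cre libraries correlated best with its own number. The labels do not say whether equal numbers mark a shared litter or day, and this was not tested. A gene with 0 counts could have had up to 0.107 to 0.142 CPM, the level of 3 counts; such limits cover counting error only.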
